A study of Equus caballus with 15 samples.

Results

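Antigen processing and presentation was examined through 10 genes of that pathway in equine monocyte-derived macrophages, namely NLRC5, B2M, TAP1, TAP2, TAPBP, PSMB8, PSMB9, CIITA, RFX5 and CD74. They were chosen by symbol. All 10 were among the 16932 genes of the deposited table. Expression is given as CPM, the reads of a gene scaled to the same total of counted reads in each library, and all 10 were among the 11628 genes that averaged at least 1 CPM and were tested. Nucleated cells show peptides of their own proteins on MHC class I molecules, and macrophages and other professional antigen-presenting cells also show peptides of engulfed material on MHC class II molecules. For class I, the immunoproteasome subunits PSMB8 and PSMB9 help cut proteins into peptides, the TAP1 and TAP2 transporter carries the peptides into the endoplasmic reticulum, tapasin (TAPBP) brings the transporter to the class I molecule, and B2M is its light chain. For class II, the invariant chain CD74 escorts the molecule to the endosome. NLRC5 and CIITA are the transactivators of class I and class II genes, RFX5 is a DNA-binding partner at their promoters, and interferon gamma is the best known inducer of the pathway.

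The cells were grown from blood mononuclear cells of 2 horses with 30 ng/ml human M-CSF over 5 days, and were studied in 5 conditions of 3 libraries each. Untreated macrophages received neither cytokine nor product, IL-1ß activated macrophages received 10 ng/ml IL-1ß for 24 h, and the other 3 groups received the same IL-1ß together with an orthobiologic therapy (OT) as 25% of the medium. The OTs were medium conditioned by bone marrow mesenchymal stromal cells (MSC-CM), lysed platelet rich plasma (PRP lysate) and ACS, an autologous serum that is incubated to enrich interleukin 1 receptor antagonist. Each OT came from 3 donor horses. The OTs shared their donors, as per the paper 3 horses gave the blood and bone marrow for them. The fit of all 15 libraries did not pair OT libraries by donor. The untreated and the IL-1ß libraries were described as technical replicates. That fit took 1 spread per gene from all 5 conditions. Its p-values, also those between OTs, thus rest partly on a spread that may be technical. The cells were washed after treatment, and the sources differ on whether 24 h of further culture followed before collection. Poly(A) RNA was sequenced to between 28410734 and 47894071 reads counted on genes per library.

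A pair of libraries stood apart before any comparison. On the first principal component, which held 55.4% of the variance, IL-1ß replicate 3 lay at -103 and PRP lysate replicate 1 at -51.7, while the other 13 libraries lay between -20.7 and 26.6. T cell markers were present in all 15 libraries although the labels name macrophages. The summed level of the 8 T cell markers was 639 to 942 CPM in untreated, 892 to 1713 CPM in IL-1ß activated, 1257 to 1359 CPM in MSC-CM, 803 to 1797 CPM in PRP lysate and 769 to 990 CPM in ACS treated cells, and its highest values were those of the 2 libraries that stood apart. IL7R, 1 of the 8, stayed under 1 CPM throughout. The summed level of 9 macrophage markers was 2042 CPM in PRP lysate replicate 1, 3461 CPM in IL-1ß replicate 3 and between 3671 and 6464 CPM in the others. CD68 reached at least 1340 CPM in every library, whereas CD14 did not exceed 4.32 CPM and ITGAM did not exceed 3.47 CPM. The symbols CD14 and IL7R each cover 2 gene identifiers, so their low values are uncertain and do not show that these transcripts were absent. Markers of B cells summed to 111 to 237 CPM, most of it from JCHAIN, and those of NK cells to 172 to 719 CPM, with the top value in PRP lysate replicate 1. The dendritic cell markers CLEC9A, XCR1 and CD1C, the platelet markers GP9, GP1BA and TUBB1 and the stromal markers DCN and LUM stayed under 1 CPM in every library. The sums of the remaining lists were 205 to 394 CPM for dendritic cells, 3.62 to 41.4 CPM for platelets and 4.05 to 20.2 CPM for stromal cells. In bulk RNA a smaller share of a cell type and less RNA per cell cannot be told apart, and the part of other cells in the values of the presentation genes was not tested.

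None of the 10 presentation genes differed by at least 2-fold at an adjusted p of at most 0.05 in any of the 7 comparisons made (limma on log2(CPM + 1), Benjamini-Hochberg adjustment over 11628 genes). A call of a gene stands for an adjusted p of at most 0.05 at any fold, and a call at 2-fold for both criteria. Without the fold threshold 1 gene passed, TAP2, which was 1.45-fold higher with PRP lysate than with IL-1ß alone and 1.45-fold higher with PRP lysate than with MSC-CM. Across all 15 libraries TAP1 varied least, by 1.45-fold between its lowest and highest library, followed by B2M (1.61-fold) and NLRC5 (1.63-fold). TAPBP varied most, by 3.28-fold, followed by PSMB8 (2.50-fold) and CD74 (2.18-fold). Each gene was read deeply, with at least 452 reads in every library for RFX5, the gene with the fewest.

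**Figure D1:**
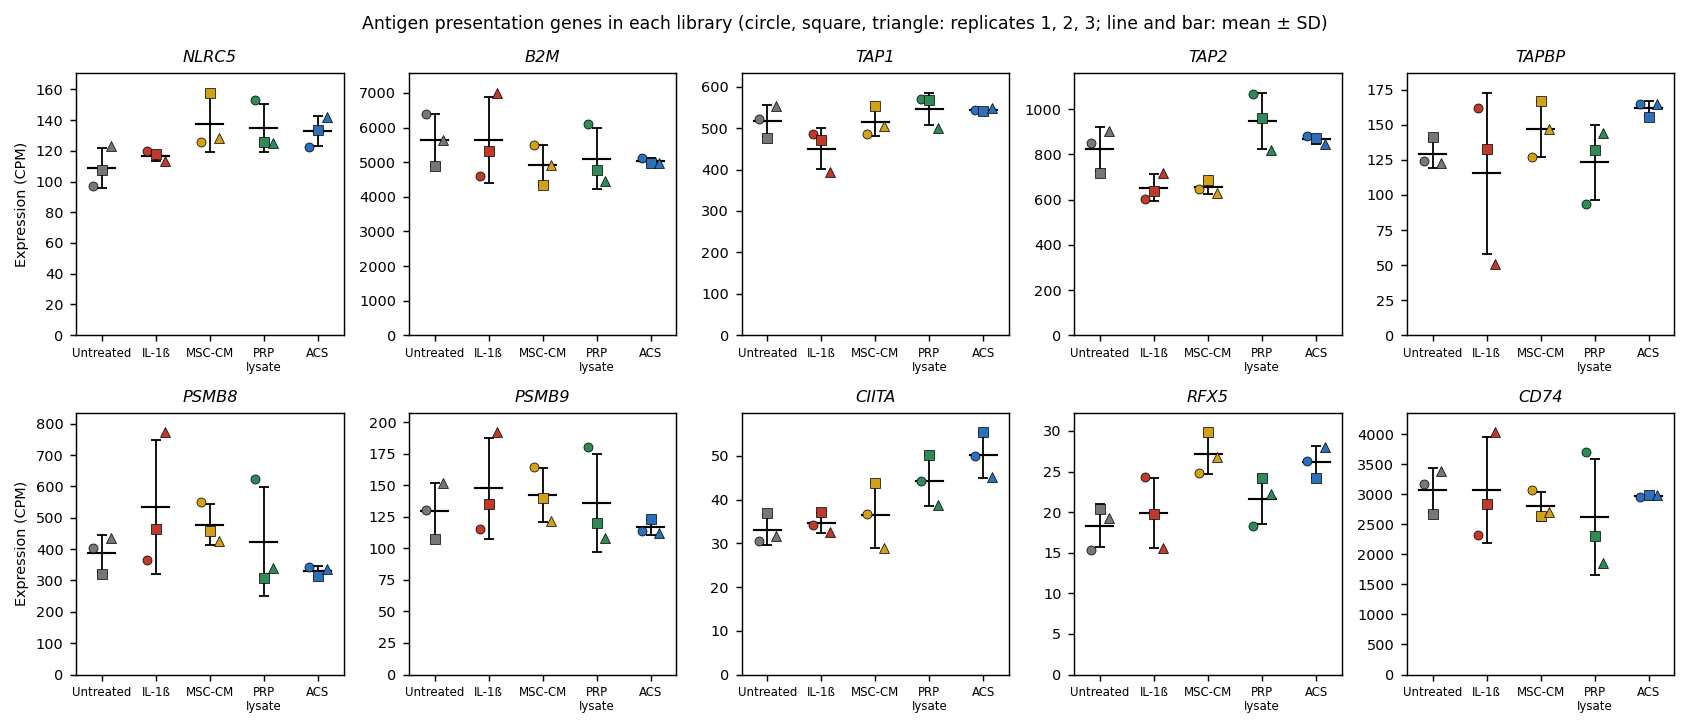
Expression of the 10 presentation genes in CPM (y axis, from 0) in each library of the 5 conditions (x axis). Symbols mark replicates 1 to 3, and lines and bars give the mean ± SD of 3 libraries. The means of TAP2 were 949 CPM with PRP lysate and 867 CPM with ACS against 653 CPM with IL-1ß and 654 CPM with MSC-CM, and the IL-1ß bars of TAPBP and PSMB8 are wide because 1 library lies far from the other 2.

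TAP2, a subunit of the peptide transporter, gave 850, 717 and 905 CPM in the untreated libraries and 602, 638 and 719 CPM in the IL-1ß libraries. It gave 648, 686 and 630 CPM with MSC-CM, 1067, 960 and 820 CPM with PRP lysate and 883, 873 and 844 CPM with ACS. Every PRP lysate and every ACS library thus lay above every IL-1ß and every MSC-CM library, while the untreated and the IL-1ß libraries met at 717 and 719 CPM. With PRP lysate TAP2 rose by 0.53 on the log2(CPM + 1) scale over IL-1ß (SE 0.12, limma adjusted p = 0.0238) and by 0.53 over MSC-CM (SE 0.12, limma adjusted p = 0.0285). The calls depended on the scaling and on single libraries: they held in 5 of 15 and 5 of 16 alternatives, with adjusted p from 0.0149 to 0.417 over IL-1ß and from 0.0189 to 0.190 over MSC-CM. The first was lost without IL-1ß replicate 1 or 2 or PRP lysate replicate 1 or 2 (adjusted p from 0.0554 to 0.0824), and the second without any 1 of the MSC-CM libraries or without PRP lysate replicate 1 or 2 (adjusted p from 0.0632 to 0.134). In a fit that paired MSC-CM and PRP lysate libraries by their number, which deviated together, the adjusted p over MSC-CM was 0.0842. With ACS the difference of TAP2 from IL-1ß was 0.41 (95% interval 0.14 to 0.68, limma adjusted p = 0.0951). IL-1ß itself gave TAP2 a difference of -0.33 from untreated cells (95% interval -0.60 to -0.07, limma adjusted p = 0.279), and MSC-CM a difference of 0.01 from IL-1ß (95% interval -0.26 to 0.27).

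TAP1, the partner subunit, gave 522, 475 and 553 CPM in untreated cells, 485, 472 and 394 CPM with IL-1ß, 486, 553 and 504 CPM with MSC-CM, 571, 568 and 501 CPM with PRP lysate and 544, 542 and 548 CPM with ACS. All 9 OT libraries lay above all 3 IL-1ß libraries, but MSC-CM replicate 1 exceeded IL-1ß replicate 1 by only 1 CPM. The difference from IL-1ß was 0.19 with MSC-CM (95% interval -0.05 to 0.43), 0.28 with PRP lysate (0.04 to 0.52, limma adjusted p = 0.195) and 0.28 with ACS (0.04 to 0.52, limma adjusted p = 0.192). These intervals stayed below a 1.44-fold change. IL-1ß replicate 3 was the lowest library of the study for TAP1. Over the alternatives the differences ranged from 0.018 to 0.251 with MSC-CM, 0.155 to 0.342 with PRP lysate and 0.152 to 0.336 with ACS, without a call.

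PSMB8, the immunoproteasome subunit also called LMP7, gave 403, 320 and 435 CPM in untreated cells and 367, 463 and 774 CPM with IL-1ß. It gave 552, 457 and 426 CPM with MSC-CM, 624, 309 and 339 CPM with PRP lysate and 343, 314 and 337 CPM with ACS. The 2 highest values were those of the libraries that stood apart, and the 3 ACS libraries lay below all IL-1ß and all MSC-CM libraries. The difference of ACS from IL-1ß was -0.62 (95% interval -1.22 to -0.02, limma adjusted p = 0.235), or -0.32 without IL-1ß replicate 3, and that of ACS from MSC-CM was -0.52 (95% interval -1.12 to 0.08, limma adjusted p = 0.458). With only the 6 ACS and MSC-CM libraries in the fit, the adjusted p of the second was 0.0188.

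PSMB9, the immunoproteasome subunit also called LMP2, ranged from 108 to 192 CPM and was again highest in IL-1ß replicate 3 and PRP lysate replicate 1 (181 CPM). Its means were 130 ± 21.8, 148 ± 39.9, 142 ± 21.4, 136 ± 38.8 and 117 ± 5.97 CPM (SD, n = 3) in untreated, IL-1ß, MSC-CM, PRP lysate and ACS cells, and no comparison separated the groups. B2M ranged from 4350 CPM in MSC-CM replicate 2 to 7009 CPM in IL-1ß replicate 3. Its group means lay between 4920 and 5643 CPM, and the 95% interval of its difference from IL-1ß was -0.55 to 0.18 with MSC-CM, -0.50 to 0.23 with PRP lysate and -0.51 to 0.22 with ACS. NLRC5 gave 97.1, 107.2 and 123 CPM in untreated cells, 120, 118 and 113 CPM with IL-1ß, 125, 158 and 128 CPM with MSC-CM, 153, 126 and 125 CPM with PRP lysate and 123, 134 and 142 CPM with ACS. All 9 OT libraries of this class I transactivator exceeded the 3 IL-1ß libraries, with differences of 0.22, 0.20 and 0.18 for MSC-CM, PRP lysate and ACS and limma adjusted p of 0.705, 0.496 and 0.380.

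TAPBP, or tapasin, gave 124, 141 and 123 CPM in untreated cells, 162, 133 and 50.9 CPM with IL-1ß, 127, 167 and 147 CPM with MSC-CM, 93.2, 132 and 144 CPM with PRP lysate and 165, 156 and 165 CPM with ACS. The lowest values were those of IL-1ß replicate 3 and PRP lysate replicate 1, the libraries in which PSMB8 and PSMB9 were highest. The difference of MSC-CM from IL-1ß was 0.50 (95% interval -0.20 to 1.19) with all libraries and -0.01 without IL-1ß replicate 3. TAPBP overlaps 1 other listed gene, SLC39A7, and the strand setting of the counting is not given in the sources used here, so reads of the overlap may belong to either.

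**Figure D2:**
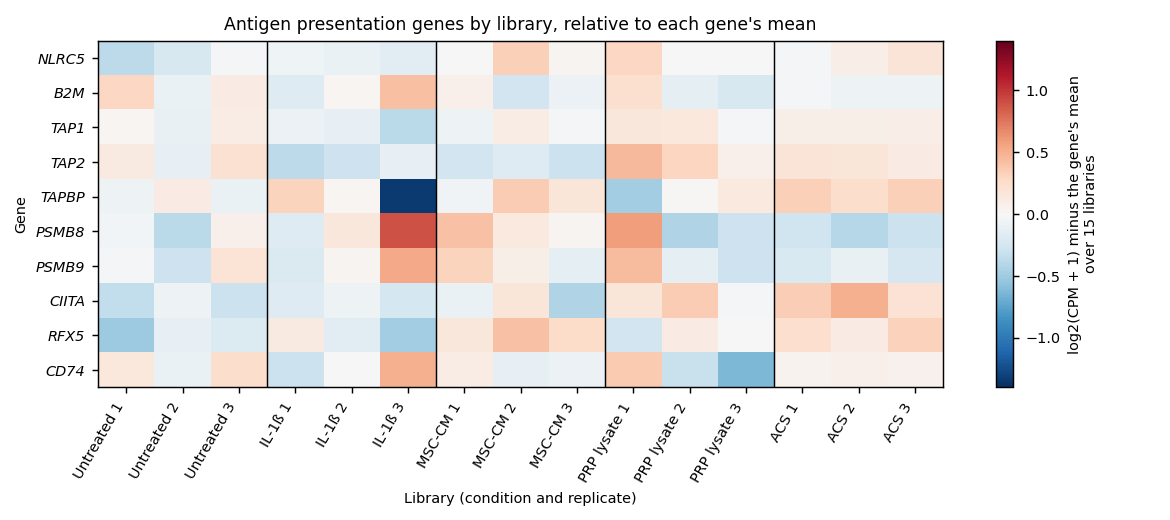
Level of each presentation gene (rows) in each of the 15 libraries (columns) as log2(CPM + 1) minus the mean of that gene over the libraries, with red above and blue below the mean. IL-1ß replicate 3 and PRP lysate replicate 1 are red for B2M, PSMB8, PSMB9 and CD74 and blue for TAPBP and RFX5, while the ACS columns resemble each other.

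CIITA, the class II transactivator, gave 30.6, 37.0 and 31.6 CPM in untreated cells and 34.3, 37.2 and 32.6 CPM with IL-1ß. It gave 36.6, 43.8 and 28.8 CPM with MSC-CM, 44.2, 50.1 and 38.7 CPM with PRP lysate and 49.9, 55.4 and 45.1 CPM with ACS. All PRP lysate and ACS libraries lay above all untreated and IL-1ß libraries, and those of ACS also above all MSC-CM libraries. The differences from IL-1ß were 0.34 with PRP lysate (95% interval -0.02 to 0.70, limma adjusted p = 0.317) and 0.52 with ACS (95% interval 0.16 to 0.88, limma adjusted p = 0.117). Neither passed, nor did the 0.47 between ACS and MSC-CM (95% interval 0.11 to 0.83, limma adjusted p = 0.206).

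RFX5, which binds the class II promoter, gave 15.4, 20.4 and 19.3 CPM in untreated cells, 24.3, 19.8 and 15.6 CPM with IL-1ß, 24.9, 29.9 and 26.8 CPM with MSC-CM, 18.3, 24.2 and 22.2 CPM with PRP lysate and 26.3, 24.2 and 28.1 CPM with ACS. The MSC-CM libraries lay above all IL-1ß and all PRP lysate libraries. The difference from IL-1ß was 0.45 with MSC-CM (95% interval 0.06 to 0.84, limma adjusted p = 0.705) and 0.40 with ACS (95% interval 0.01 to 0.79, limma adjusted p = 0.240). Over the alternatives, which include leaving out IL-1ß replicate 3, they ranged from 0.28 to 0.60 and from 0.24 to 0.54, without a call.

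CD74, the invariant chain, gave 3164, 2675 and 3380 CPM in untreated cells and 2327, 2840 and 4037 CPM with IL-1ß. It gave 3068, 2631 and 2697 CPM with MSC-CM, 3696, 2303 and 1848 CPM with PRP lysate and 2962, 2993 and 2982 CPM with ACS. The PRP lysate libraries held both the lowest value of the study and the second highest, whereas the ACS libraries differed by 31 CPM at most. The groups overlapped in all 7 comparisons, and the 95% interval of the difference from IL-1ß was -0.60 to 0.41 with MSC-CM, -0.76 to 0.25 with PRP lysate and -0.51 to 0.50 with ACS.

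**Figure D3:**
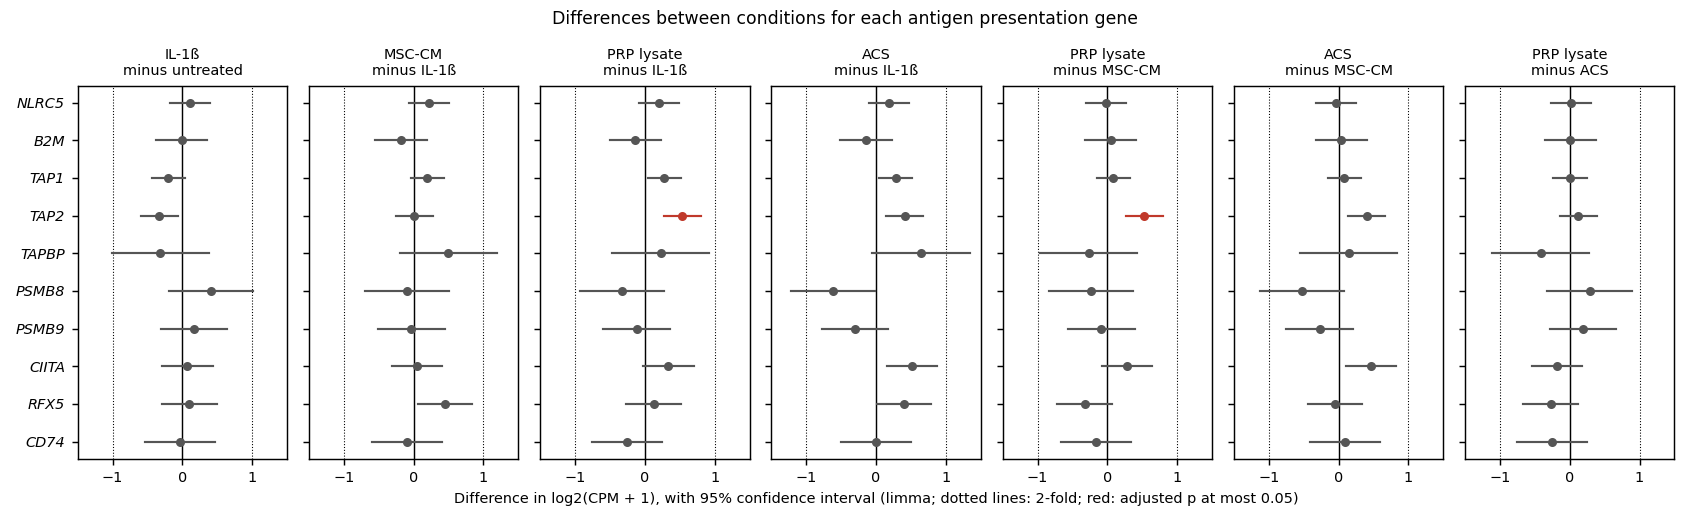
Difference in log2(CPM + 1) of each presentation gene (rows) in the 7 comparisons (panels), with the 95% confidence interval from limma. Dotted lines mark a 2-fold difference and red marks an adjusted p of at most 0.05, which holds for TAP2 in PRP lysate against IL-1ß and against MSC-CM, and the widest intervals are those of TAPBP and PSMB8.

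The counts of calls among the 10 stand here beside those of all genes tested. IL-1ß against untreated cells called 0 of the 10, and 0.292% of all genes tested at 2-fold or 0.387% at any fold. MSC-CM against IL-1ß called 0 of 10 and 0.0% of all genes under both rules. PRP lysate against IL-1ß called 0 of 10 at 2-fold against 3.09% of all genes, and 1 of 10 at any fold against 4.94%. ACS against IL-1ß called 0 of 10 against 2.21% at 2-fold and 3.45% at any fold. In the direct comparisons of the OTs, PRP lysate against MSC-CM called 0 of 10 at 2-fold (background 2.61%) and 1 of 10 at any fold (4.22%), ACS against MSC-CM called 0 of 10 (1.23% and 1.92%), and PRP lysate against ACS called 0 of 10 (0.0946% and 0.103%). At an unadjusted p under 0.05 the counts were 1 lower for IL-1ß (TAP2), 1 higher for MSC-CM (RFX5), 2 higher for PRP lysate (TAP1 and TAP2), and 4 higher (CIITA, RFX5, TAP1 and TAP2) with 1 lower (PSMB8) for ACS, each of the OTs against IL-1ß. Of all genes tested, 13% had such a p for IL-1ß, 5.6% for MSC-CM, 17.5% for PRP lysate and 20.5% for ACS. Between the OTs the counts were 1 of 10 for PRP lysate against MSC-CM (background 14.5%), 2 for ACS against MSC-CM (13.5%) and 0 for PRP lysate against ACS (5.19%). The number of the 10 whose groups did not overlap was 0 for IL-1ß against untreated (background 16.2%), 3 for MSC-CM (8.79%), 4 for PRP lysate (15%) and 5 for ACS (26.2%) against IL-1ß, 2 for PRP lysate against MSC-CM (19.4%), 3 for ACS against MSC-CM (35.1%) and 1 for PRP lysate against ACS (15.6%).

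Over the 10 genes, the median log2 difference from IL-1ß was 0.03 for MSC-CM, 0.16 for PRP lysate and 0.23 for ACS, beside 0.16, 0.11 and 0.13 over all genes tested. The 3 comparisons share the IL-1ß libraries, and relative to the median of all genes the rise of TAP2 with PRP lysate was smaller. With RLE size factors TAP2 differed from IL-1ß by 0.44 with PRP lysate (adjusted p = 0.206).

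Without IL-1ß replicate 3 and PRP lysate replicate 1, an alternative chosen after seeing the data, 0 of the 10 were called at 2-fold in the 6 comparisons with IL-1ß or PRP lysate libraries. At any fold TAP2 passed with PRP lysate and with ACS against IL-1ß (0.48 with ACS, limma adjusted p = 0.0240), where 9.28% and 5.96% of all genes passed. Against MSC-CM, 3 of the 10 then passed with PRP lysate, where 15.6% of all genes did. TAP2 was higher, and CD74 (-0.44, limma adjusted p = 0.0460) and PSMB8 (-0.55, limma adjusted p = 0.0248) were lower.

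TAP2, PSMB8, TAP1 and PSMB9 lie side by side in the MHC region of chromosome 20. From the start of TAP2 to the end of PSMB9, chr20:34307688-34344697 in EquCab3.0, they span 37010 bases with 0 other listed genes between them, and 316 bases separate TAP1 (ENSECAG00000022610) from PSMB9 (ENSECAG00000016898). TAPBP follows 293756 bases further, behind 13 listed genes. NLRC5 lies on chromosome 3, B2M on 1, CIITA on 13, RFX5 on 5 and CD74 on 14. In IL-1ß replicate 3, a library that stood apart, PSMB8 and PSMB9 were at the top of their range over the 15 libraries, and TAP1 between them was at the bottom of its own. In PRP lysate replicate 1, which also stood apart, all neighbours were high. TAP2 (1067 CPM) and TAP1 (571 CPM) were there at their highest, and PSMB8 (624 CPM) and PSMB9 (181 CPM) at their second highest. Whether the neighbours moved together was not tested.

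Ratios within a library are free of the total by which CPM are scaled. TAP2 over TAP1 was 1.24 to 1.33 with MSC-CM, 1.64 to 1.87 with PRP lysate, 1.54 to 1.62 with ACS and 1.51 to 1.64 in untreated cells, so that the MSC-CM libraries lay apart from these 3 groups. The IL-1ß libraries gave 1.24, 1.35 and 1.82, the last in replicate 3. PSMB8 over PSMB5, the standard subunit that it replaces in the immunoproteasome, was 3.24 to 3.62 in untreated and 3.32 to 3.58 in ACS cells, and 3.93 to 4.39 with IL-1ß, 4.16 to 4.61 with MSC-CM and 3.60 to 4.07 with PRP lysate. On this ratio the IL-1ß libraries, replicate 3 included, lay above all untreated and all ACS libraries. PSMB9 over its counterpart PSMB6 lay between 0.706 and 0.952 and overlapped in all 5 groups.

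**Figure D4:**
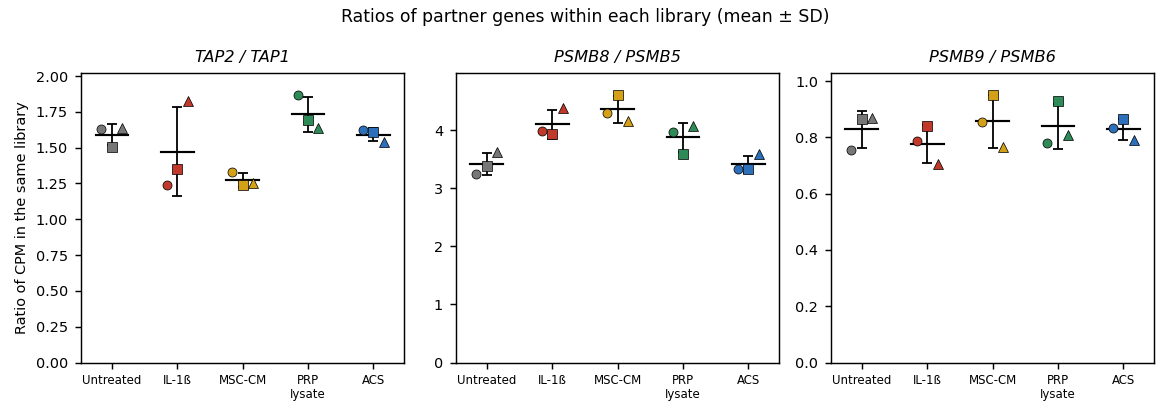
Ratio of the CPM of partner genes in the same library (y axis, from 0) in the 5 conditions (x axis), with the mean ± SD of 3 libraries. TAP2 over TAP1 is lowest with MSC-CM (1.27 ± 0.05), PSMB8 over PSMB5 is 3.41 ± 0.19 in untreated and 3.41 ± 0.15 in ACS cells against 4.10 ± 0.25 with IL-1ß, and PSMB9 over PSMB6 overlaps in all groups.

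The genes whose pattern over the 15 libraries was most like that of CD74 were CD81, a tetraspanin, EQMHCC1, an MHC gene, and DQB, a class II beta chain. Their root mean square differences from CD74 in centred log2(CPM + 1) were 0.10, 0.10 and 0.10, beside a median of 0.45 over all other genes tested. For TAP1 they were PI4KB, EIF4H and RABGGTB, at 0.07 each beside a median of 0.35. PSMB8, looked at after its values were seen, was most like RPL7A, EIF3G and RPL13A, genes of the ribosome and of translation initiation, at 0.06, 0.06 and 0.07 beside a median of 0.53. Each likeness runs over the same libraries, including those that stood apart.

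Other genes of the pathway passed, several of them past 2-fold. These lists and the marker lists were chosen with earlier results of these data known. Their counts beside the shares of all genes are thus a description and not a test. Of 20 class II genes in the table, 3 fell and 0 rose with PRP lysate against IL-1ß at any fold, beside 4.94% of all genes tested that passed in either direction. LGMN, an endosomal protease that starts the breakdown of the invariant chain, gave 2309, 2676 and 3729 CPM with IL-1ß, 541, 761 and 836 CPM with PRP lysate and 1310, 1037 and 785 CPM with ACS. It fell by 2.02 with PRP lysate (SE 0.25, limma adjusted p = 0.000448) and by 1.48 with ACS (SE 0.25, limma adjusted p = 0.00713), with no overlap between the groups, though with only ACS and IL-1ß libraries in the fit the latter call was lost (adjusted p = 0.0816). HLA-DMB and HLA-DMA encode the HLA-DM peptide editor, which exchanges the invariant chain peptide for others. HLA-DMB gave 125, 142 and 156 CPM with IL-1ß, 134, 130 and 118 CPM with MSC-CM, 46.9, 61.2 and 49.6 CPM with PRP lysate, and 111, 97.0 and 78.7 CPM with ACS.

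The PRP lysate libraries were the lowest of the study for HLA-DMB. It fell by 1.41 against IL-1ß (SE 0.15, limma adjusted p = 0.000151) and by 1.27 against MSC-CM (SE 0.15, limma adjusted p = 0.000422), and both calls held in every alternative run. With ACS its difference from IL-1ß was -0.56 (95% interval -0.88 to -0.24, limma adjusted p = 0.0579). HLA-DMA gave 60.6, 80.3 and 116 CPM with IL-1ß and 50.9, 40.9 and 37.3 CPM with PRP lysate. It fell by 0.94 (SE 0.20, limma adjusted p = 0.0170), a call that held in 10 of 15 alternatives and was lost without IL-1ß replicate 2, PRP lysate replicate 2 or PRP lysate replicate 3, with a highest adjusted p of 0.368. Against MSC-CM 4 of the 20 fell with PRP lysate (background 4.22%), namely LGMN (-1.85), HLA-DMB, HLA-DMA (-0.82, limma adjusted p = 0.0378) and the class II alpha chain DQA (-0.79, limma adjusted p = 0.0403). The last 2 calls each held in 4 of 16 alternatives, with adjusted p of HLA-DMA and DQA as high as 0.183 and 0.221, and both were lost without any 1 of the MSC-CM libraries or without PRP lysate replicate 2 or 3. In the paired fit of these 6 libraries DQA had an adjusted p of 0.0541, whereas HLA-DMA kept its call. The ubiquitin ligase MARCHF1, which marks class II molecules for breakdown, gave 8.77, 10.95 and 11.4 CPM with MSC-CM and 0.322, 3.75 and 2.36 CPM with PRP lysate. Its difference of -2.03 was larger than that of LGMN and missed the threshold in the fit of all libraries (limma adjusted p = 0.0560). It passed in the paired fit (limma adjusted p = 0.00866), where the pairing by number is not known to match donors.

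The abundant class II chains gave no call against IL-1ß. DRA gave 1074, 1241 and 1535 CPM with IL-1ß, 1072, 1043 and 784 CPM with PRP lysate and 1477, 1431 and 1211 CPM with ACS, and its difference was -0.41 with PRP lysate (95% interval -0.75 to -0.06, limma adjusted p = 0.196). DRB, DQA and DQB belong to families of near-identical genes, so their values are uncertain. The protease CTSS showed a difference of -0.04 with PRP lysate (95% interval -0.45 to 0.36). HLA-DOA, which restrains HLA-DM, rose with ACS by 1.18 (limma adjusted p = 0.030), but from 1.45, 0.876 and 0 CPM to 2.46, 3.08 and 2.80 CPM, and the call held in 5 of 14 alternatives only, with an adjusted p of up to 0.275 and no call without IL-1ß replicate 2 or 3 or any 1 of the ACS libraries. Against MSC-CM, LGMN alone fell with ACS (-1.31, limma adjusted p = 0.0179), which held in 8 of 13 alternatives, with adjusted p of up to 0.120 and no call without MSC-CM replicate 1 or 3 or ACS replicate 2 or 3. IL-1ß against untreated cells and MSC-CM against IL-1ß called 0 of the 20 class II genes, as did PRP lysate against ACS, where HLA-DMB differed by -0.85 (limma adjusted p = 0.0509). At an unadjusted p under 0.05 these 3 comparisons counted 5, 1 and 7 of the 20, beside 13%, 5.6% and 5.19% of all genes tested. The median log2 difference of the list from IL-1ß was -0.29 with PRP lysate and 0.01 with ACS, beside 0.11 and 0.13 over all genes.

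Of 13 further class I genes, 1 fell with ACS against IL-1ß (background 3.45%), CALR, an endoplasmic reticulum chaperone. It gave 1223, 1488 and 1808 CPM with IL-1ß and 1005, 934 and 878 CPM with ACS, a fall of 0.67 (SE 0.16, limma adjusted p = 0.0399) that held in 4 of 14 alternatives, with an adjusted p of up to 0.219, and was lost without any 1 of the ACS libraries and without IL-1ß replicate 2 or 3. In the other 6 comparisons 0 of the 13 passed, and 1, 0, 3, 2, 1 and 0 of them had an unadjusted p under 0.05 for IL-1ß against untreated, MSC-CM against IL-1ß, PRP lysate against IL-1ß, PRP lysate against MSC-CM, ACS against MSC-CM and PRP lysate against ACS. The shares of all genes were 13%, 5.6%, 17.5%, 14.5%, 13.5% and 5.19%. Against IL-1ß, the class I list had a median of -0.09 for MSC-CM, -0.23 for PRP lysate and -0.21 for ACS.

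Of 10 genes of the interferon gamma pathway, IFNG and IRF8 rose with PRP lysate and with ACS against IL-1ß, and 2 more fell with PRP lysate (background 4.94% and 3.45%). IFNG, the cytokine itself, gave 9.50, 7.40 and 12.6 CPM in untreated cells, 10.4, 9.63 and 7.71 CPM with IL-1ß, 7.70, 12.9 and 8.08 CPM with MSC-CM, 30.2, 36.1 and 43.1 CPM with PRP lysate and 22.0, 16.7 and 22.3 CPM with ACS. The PRP lysate and the ACS libraries lay above all others, and those of PRP lysate above those of ACS. IFNG rose by 1.87 with PRP lysate over IL-1ß (SE 0.24, limma adjusted p = 0.000539), in every alternative, and by 1.06 with ACS (SE 0.24, limma adjusted p = 0.0291), in 8 of 14 alternatives with an adjusted p of up to 0.129, the call being lost without IL-1ß replicate 2 or 3 or any 1 of the ACS libraries. IFNG is a product of T and NK cells. The NK markers summed to 262 to 719 CPM with PRP lysate, 206 to 371 CPM with ACS and 197 to 435 CPM with IL-1ß, and the part of these cells and of the T cells described above in its level was not tested.

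IRF8, a transcription factor of the myeloid interferon response, gave 447, 383 and 623 CPM in untreated cells, 308, 289 and 220 CPM with IL-1ß, 697, 698 and 517 CPM with PRP lysate and 611, 706 and 786 CPM with ACS. The untreated libraries lay above those of IL-1ß, by 0.81 (limma adjusted p = 0.105), and overlapped those of PRP lysate and ACS. IRF8 rose over IL-1ß by 1.22 with PRP lysate (SE 0.20, limma adjusted p = 0.00271) and by 1.37 with ACS (SE 0.20, limma adjusted p = 0.00317). Against MSC-CM, IFNG rose by 1.84 and 1.03 and IRF8 by 1.10 and 1.24 with PRP lysate and ACS (limma adjusted p = 0.000674, 0.0436, 0.00654 and 0.00635). With a replicate block the IRF8 call of PRP lysate over MSC-CM was lost (adjusted p = 0.0602). The IFNG call of ACS over MSC-CM held in 7 of 13 alternatives, with an adjusted p of up to 0.217, and was lost without MSC-CM replicate 1 or 3 or any 1 of the ACS libraries. IRF2 fell with PRP lysate against IL-1ß (-0.64, limma adjusted p = 0.00613) and against MSC-CM (-0.71, limma adjusted p = 0.00365), and the receptor chain IFNGR2 fell against IL-1ß (-0.56, limma adjusted p = 0.0331) in 9 of 15 alternatives, with an adjusted p of up to 0.387 and no call without IL-1ß replicate 1 or 2 or PRP lysate replicate 2 or 3. With only the 2 compared groups in the fit, the calls of IRF8 and IRF2 for PRP lysate over IL-1ß were lost (adjusted p = 0.0904 and 0.277), as was that of IRF2 against MSC-CM (adjusted p = 0.0652). IRF1 differed by 0.55 with PRP lysate and 0.54 with ACS against IL-1ß (limma adjusted p = 0.0687 and 0.0847). None of the 10 passed for IL-1ß against untreated cells, for MSC-CM against IL-1ß or for PRP lysate against ACS, where 3, 0 and 2 had an unadjusted p under 0.05, beside 13%, 5.6% and 5.19% of all genes.

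**Figure D5:**
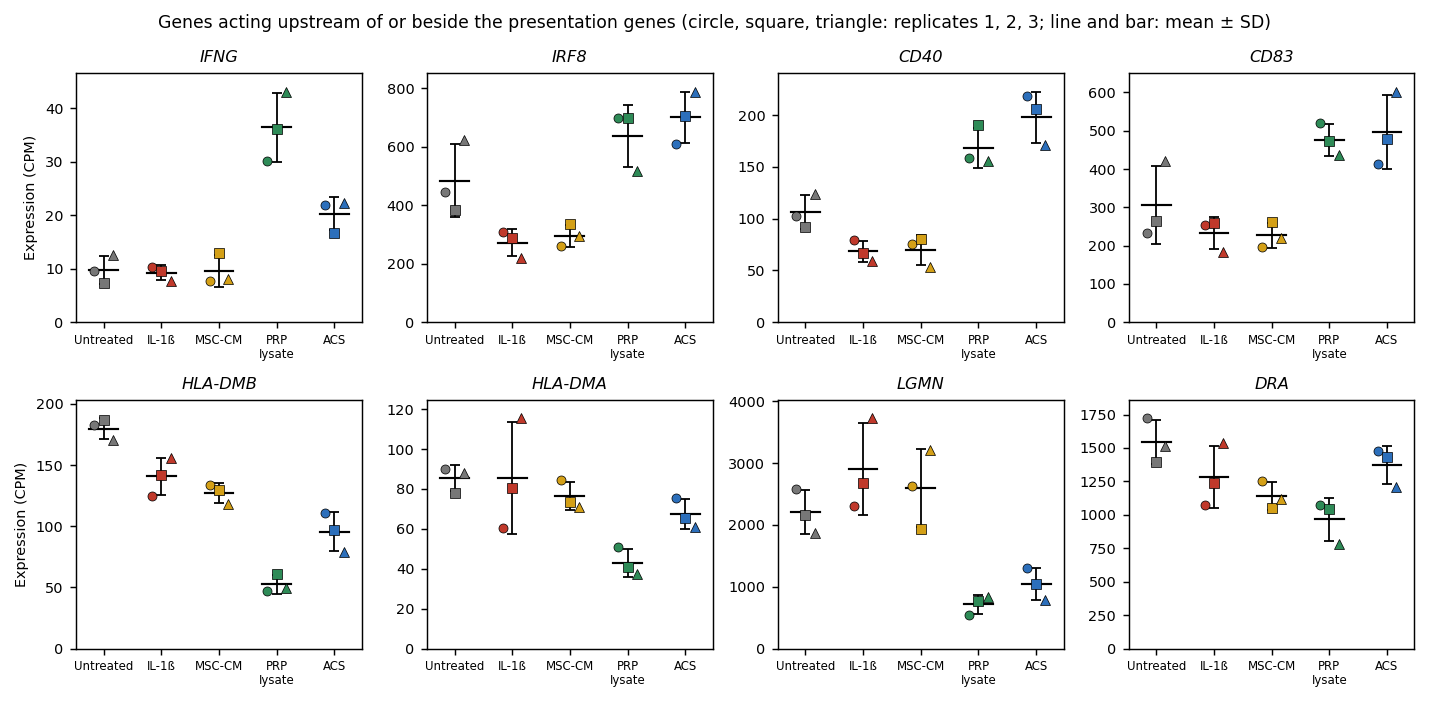
Expression in CPM (y axis, from 0) of 8 further genes of the pathway in each library of the 5 conditions (x axis), with the mean ± SD of 3 libraries. IFNG, IRF8, CD40 and CD83 are higher with PRP lysate and ACS than with IL-1ß or MSC-CM, HLA-DMB and LGMN are lower with PRP lysate than with IL-1ß, and DRA overlaps between PRP lysate replicate 1 and MSC-CM.

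Of 7 surface genes of antigen-presenting cells, 3 rose with PRP lysate and the same number with ACS against IL-1ß (background 4.94% and 3.45%), namely CD40, CD83 and ICAM1. CD40, the receptor for T cell help, gave 102, 92.3 and 124 CPM in untreated cells, 79.4, 67.2 and 59.2 CPM with IL-1ß, 158, 190 and 156 CPM with PRP lysate and 218, 205 and 171 CPM with ACS. The untreated libraries lay between those of IL-1ß and those of both products. CD40 rose over IL-1ß by 1.29 with PRP lysate (SE 0.18, limma adjusted p = 0.00112) and by 1.52 with ACS (SE 0.18, limma adjusted p = 0.00110). CD83, a maturation marker of antigen-presenting cells, rose by 1.05 and 1.10 (limma adjusted p = 0.0145 and 0.0171), and the adhesion molecule ICAM1 by 0.79 and 1.01 (limma adjusted p = 0.00418 and 0.00222). In untreated cells CD83 gave 233, 265 and 421 CPM, which overlapped the 184 to 259 CPM of IL-1ß and reached the 413 to 602 CPM of ACS, and ICAM1 gave 1026, 991 and 1226 CPM, which lay above IL-1ß and overlapped PRP lysate at 1111 to 1453 CPM. With only the 2 compared groups in the fit, CD40, CD83 and ICAM1 lost their calls for PRP lysate over IL-1ß (adjusted p = 0.0621, 0.105 and 0.172) and CD83 and ICAM1 theirs for ACS (adjusted p of ICAM1 = 0.0557). CD83 lost its call with ACS also without IL-1ß replicate 3 or ACS replicate 2 or 3, with an adjusted p of up to 0.113 over 14 alternatives. All 3 genes also rose with both products against MSC-CM, by 1.28, 1.07 and 0.83 with PRP lysate and by 1.51, 1.12 and 1.05 with ACS, though CD83 lost these calls without MSC-CM replicate 1 or 3, with adjusted p of up to 0.0815 (the highest, with a replicate block) and 0.107 over all alternatives, and that of ACS also without ACS replicate 2 or 3. CD80, a costimulatory ligand, differed from IL-1ß by 0.95 and 0.99 (limma adjusted p = 0.133 and 0.125), and the inhibitory ligand CD274 by 1.18 and 2.03 (limma adjusted p = 0.434 and 0.147). These differences depend in part on IL-1ß replicate 3, the lowest library of the study for both genes. With IL-1ß, CD80 gave 55.7, 45.2 and 22.1 CPM and CD274 gave 213, 128 and 20.8 CPM. The second inhibitory ligand PDCD1LG2 differed by -0.70 and -0.09 (limma adjusted p = 0.251 and 0.843), and CD86, the partner of CD80, by -0.05 and 0.35 (limma adjusted p = 0.912 and 0.311). None of the 7 passed for IL-1ß against untreated, MSC-CM against IL-1ß or PRP lysate against ACS, with 3, 0 and 0 at an unadjusted p under 0.05, beside 13%, 5.6% and 5.19% of all genes.

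Beside these genes, 3 of the 9 macrophage markers fell with PRP lysate against IL-1ß (background 4.94%). CD163, a scavenger receptor, went from 685, 638 and 365 CPM to 7.34, 13.3 and 13.4 CPM, and MERTK and AIF1 fell by 2.69 and 1.37 (limma adjusted p = 1.71e-05 and 0.00176). With only the 2 compared groups in the fit, AIF1 lost this call (adjusted p = 0.0860). With ACS the same 3 genes fell (background 3.45%), by 3.12, 0.95 and 1.10, and the calls of MERTK and AIF1 were lost without IL-1ß replicate 2, ACS replicate 2 or ACS replicate 3, that of MERTK also without ACS replicate 1, with adjusted p of up to 0.143 and 0.112. Called or not, 8 of the 9 markers were lower and 1 higher with PRP lysate, and 6 were lower and 3 higher with ACS. CD68 differed from IL-1ß by 0.01 and 0.004 with PRP lysate and ACS, and MSR1 by -0.20 and -0.04. MRC1 differed by -0.81 and 0.06, and CSF1R by -1.08 and -0.20. Of 5 dendritic cell markers tested, 2 fell with PRP lysate against IL-1ß, both at low levels and named after their values were seen. FLT3, a growth factor receptor, went from 4.59, 3.76 and 5.15 CPM to 1.45, 0.909 and 0.493 CPM (-1.52, limma adjusted p = 0.000718), and FCER1A, an IgE receptor chain, from 11.1, 15.3 and 20.5 CPM to 4.14, 3.66 and 5.46 CPM (-1.59, limma adjusted p = 0.00639). The groups did not overlap for either gene, though with only the 2 compared groups in the fit both calls were lost (adjusted p = 0.113 and 0.124). With ACS FCER1A fell by 1.24 (limma adjusted p = 0.0356), a call that held in 6 of 14 alternatives, with an adjusted p of up to 0.170, and was lost without IL-1ß replicate 2 or 3 or any 1 of the ACS libraries. CCR7, which makes up most of the summed level of these markers, differed from IL-1ß by 0.15 and 0.24 (limma adjusted p = 0.824 and 0.603). ZBTB46 differed by 0.29 and 0.45 (limma adjusted p = 0.638 and 0.323) and BATF3 by -0.31 and -0.44 (limma adjusted p = 0.563 and 0.285). The part of these markers in the differences of HLA-DMB, HLA-DMA, LGMN and the surface genes was not tested.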

How the data were processed

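Per the labels and the methods, poly(A) RNA libraries (TruSeq) were processed in Partek Flow with cutadapt, STAR 2.7.3 on EquCab3.0 and HTseq, and the authors deposited CPM per gene for 16932 genes. The strand setting is not given in the sources used here. The values were whole multiples of 1 read for at least 99.4% of each library's values (within 0.05 reads), so read counts were recovered for edgeR and DESeq2. All 15 columns were matched to samples by name.

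The main analysis was limma with trend on log2(CPM + 1), which understates changes of low genes, with all 15 libraries in 1 fit, over 11628 genes that averaged at least 1 CPM. A gene was called at an adjusted p of at most 0.05, and called at 2-fold where it also changed 2-fold, a rule which the study also used except for MSC-CM, where it took the unadjusted p. Intervals are 95% intervals of that fit. Genes and lists were chosen with earlier results of these data known. Named pathway genes are those of the lists that passed the test, or with large or central values, some of them chosen after their values were seen. Likeness was the root mean square difference of centred log2(CPM + 1).

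Alternatives were a pseudocount of 0.1, no filter, RLE and TMM factors, edgeR and DESeq2 on recovered reads, leaving out each library, a replicate block, a fit of the compared groups alone, and no fold threshold. Leaving out IL-1ß replicate 3 and PRP lysate replicate 1 together, and a paired fit of the 6 MSC-CM and PRP lysate libraries, were added after seeing the data. Same-numbered MSC-CM and PRP lysate libraries deviated together over all genes (correlations 0.635, 0.255 and 0.419), which was taken as pairing. These correlations cannot show that equal numbers mean the same donor. Untreated and MSC-CM libraries gave 0.556, 0.457 and -0.319, although the untreated libraries received no OT. Other groups showed at least 1 negative correlation. ACS titles carry no numbers. Promoter sequences were not used here. The steps were tested on simulated data. Software was Python 3.11.15 with pandas 2.3.3 and matplotlib 3.10.9, and R 4.3.3 with DESeq2 1.42.0, edgeR 4.0.16 and limma 3.58.1.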

Additional observations from a re-analysis of the deposited data

How the results depend on the processing

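The count of presentation genes called at 2-fold was 0 in all 7 comparisons and under every alternative that kept the fold threshold, including leaving out each library in turn (0 to 0). With no fold threshold it was 1 for PRP lysate against IL-1ß and 1 for PRP lysate against MSC-CM (TAP2). With the replicate block TAP2 still differed by 0.53 in both, with adjusted p of 0.152 and 0.190, and the count at 2-fold stayed 0. The block over the 12 libraries without ACS also ended the calls of CD83, HLA-DMA, IFNGR2, IRF2 and FCER1A against IL-1ß (adjusted p = 0.0794, 0.105, 0.138, 0.0681 and 0.0559). Against MSC-CM it ended those of CD83, HLA-DMA, IRF8, DQA, AIF1 and FCER1A (adjusted p = 0.0815, 0.183, 0.0602, 0.0886, 0.0958 and 0.0686). It changed no other call that the report gives by gene name for PRP lysate against these 2 groups.

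Of 1020 refits of 70 fold changes of the 10 genes, 990 stayed on their side of the threshold, 21 lost a call, 5 gained one and 4 changed direction. Among the 990 are 82 changes of sign of values within 1 SE of 0, for which no direction is stated. TAPBP in MSC-CM against IL-1ß ranged from -0.007 without IL-1ß replicate 3 to 0.819 over its alternatives, and was -0.007 without IL-1ß replicate 3 and PRP lysate replicate 1. PSMB8 in PRP lysate against ACS ranged from -0.031 without PRP lysate replicate 1 to 0.474, and was -0.031 without both. Fitting only ACS and MSC-CM libraries added PSMB8 and TAP2 (adjusted p = 0.0188 and 0.0183).

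Counts of all genes called at 2-fold moved from 34 to between 0 and 173 for IL-1ß against untreated, from 0 to at most 2 for MSC-CM, from 359 to between 56 and 694 for PRP lysate and from 257 to between 48 and 705 for ACS against IL-1ß, from 304 to between 167 and 562 and from 143 to between 53 and 323 for PRP lysate and ACS against MSC-CM, and from 11 to between 0 and 61 for PRP lysate against ACS. With 3 libraries a group, some intervals of TAPBP and PSMB8 reached beyond 2-fold, so a difference of that size is not excluded there. The causes were not tested.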
